A study of Saccharomyces cerevisiae with 22 samples.

Results

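The genes described here encode the yeast Atg8 and Atg12 conjugation machinery. They are *ATG8*, *ATG4*, *ATG7*, *ATG3*, *ATG12*, *ATG10*, *ATG5* and *ATG16*, that is 8 of the 6696 genes listed in the deposited tables, and they were selected by their systematic names. Read counts on these genes were followed across 12 RNA-Seq libraries of total lysates and vacuole fractions, and across 10 libraries of WT cells, 5 of RNA-Seq and 5 of ribosome footprints. Cells labelled *rny1*Δ *atg2*Δ or *rny1*Δ were cultured in YPD with 0.2 µM rapamycin for 3 h (2 libraries per strain and fraction) or harvested while growing in YPD alone (1 library per strain and fraction). Both mutant strains thus carry the deletion of the vacuolar ribonuclease gene *RNY1*, and they differ in the deletion of *ATG2*, whose product is needed for autophagy. WT cells carried neither deletion and were sampled while growing (2 libraries of each assay) and after 1, 2 and 3 h in 0.2 µM rapamycin (1 library of each assay at each time). Rapamycin inhibits the TORC1 kinase and induces autophagy. Vacuoles were purified by flotation of spheroplast lysates.

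As background, both systems work like ubiquitin. Atg8 is trimmed by the protease Atg4, activated by the E1 enzyme Atg7, passed to the E2 enzyme Atg3 and attached to phosphatidylethanolamine in the growing autophagosome membrane, where it also binds cargo receptors, and Atg4 can cut it off again. Atg12 is activated by the same E1, Atg7, passed to the E2 enzyme Atg10 and joined to Atg5. The Atg12-Atg5 conjugate binds Atg16, and this complex promotes the transfer of Atg8 to the lipid.

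In the R64 annotation of the S288C genome, *ATG8* (YBL078C) lies on chromosome II at 80378 to 80731 and is the shortest of the 8 coding regions, with 354 nt. *ATG7* (YHR171W, chromosome VIII, 445713 to 447605) is the longest, with 1893 nt. *ATG4* (YNL223W) and *ATG3* (YNR007C) are on chromosome XIV at 227370 to 228854 and 639182 to 640114, with 1485 and 933 nt. *ATG12* (YBR217W, chromosome II, 657832 to 658392) has 561 nt and *ATG10* (YLL042C, chromosome XII, 52087 to 52590) has 504 nt. *ATG5* (YPL149W, chromosome XVI, 271310 to 272194) has 885 nt and *ATG16* (YMR159C, chromosome XIII, 574476 to 574928) has 453 nt. None of the 8 overlaps another annotated gene, and the RNA-Seq kit does not keep strand.

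The vacuole experiment libraries held between 9156333 and 22097523 counts on genes, except the second *rny1*Δ *atg2*Δ vacuole library after rapamycin, which held 535462. A floor of 3 counts per library corresponds to 5.6 counts per 1000000 (CPM) in that shallow library and to at most 0.328 CPM in the other 11. WT RNA-Seq libraries held 10361721 to 14917164 counts and WT footprint libraries 2657480 to 20413301. Counts on *ATG2* were 0 to 79 in libraries labelled *rny1*Δ *atg2*Δ, against 851 to 1448 in those labelled *rny1*Δ. Counts on *RNY1* were present in all 12 mutant libraries (9 to 439), so this deletion is not visible in the counts, and strains are named below as their labels name them. Mitochondrially encoded genes took 0.0159 to 1.23% of counts in vacuole libraries, against 0.781 to 5.85% in total lysates. In bulk RNA, fewer cells that express a gene and less of its mRNA per cell cannot be told apart, and all values are relative to the mRNA counted in the same library.

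Rapamycin raised *ATG8*, *ATG3* and *ATG16* mRNA in total lysates of both mutant strains and *ATG4* mRNA in *rny1*Δ, and no change of *ATG12* or *ATG5* passed the test. A gene is called higher or lower when its log2 change is at least 1 in size and its adjusted p-value from edgeR's quasi-likelihood test is under 0.01. By this rule 3 of the 8 genes were higher in *rny1*Δ *atg2*Δ and 4 of 8 in *rny1*Δ, with a median log2 change of 0.84 and 1.03 over the 8 genes, against -0.02 and -0.05 over all genes tested. Over all genes, 23.4% were called higher in *rny1*Δ *atg2*Δ and 21.3% in *rny1*Δ. No conjugation gene was called lower, against 23.9% and 22.9% of all genes. With 1 growing library per strain, each of these changes rests on the spread between the rapamycin replicates, which the study describes as independent.

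*ATG8*, the ubiquitin-like modifier, changed most. After rapamycin its normalised CPM were 173 and 185 in *rny1*Δ *atg2*Δ lysates, against 21.9 in growing cells of that strain. In *rny1*Δ lysates they were 203 and 267 after rapamycin, against 21.3 in growing cells. Rapamycin and growing libraries lay far apart in both strains, with log2 changes of 3.03 ± 0.18 (SE, adjusted p = 2.9e-11, edgeR) and 3.47 ± 0.18 (adjusted p = 9.1e-12).

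*ATG3*, the E2 enzyme for Atg8, had 52.6 and 53.5 CPM in *rny1*Δ *atg2*Δ lysates after rapamycin, against 15.6 in growing cells. In *rny1*Δ lysates it had 57.8 and 65.1 CPM after rapamycin, against 16.6 in growing cells. The log2 changes were 1.77 ± 0.14 and 1.89 ± 0.14 (adjusted p = 1.8e-09 and 1.3e-09, edgeR), so *ATG3* rose in both strains. *ATG4*, the protease that primes and recycles Atg8, had 26.2 and 20.6 CPM after rapamycin against 12.2 in growing *rny1*Δ *atg2*Δ cells, and 22.6 and 26.6 against 10.7 in *rny1*Δ cells. Its log2 change of 1.20 ± 0.20 in *rny1*Δ was called (adjusted p = 2.3e-05), while that of 0.95 ± 0.18 in *rny1*Δ *atg2*Δ missed the size threshold (adjusted p = 1.2e-04). Without the second rapamycin total library of *rny1*Δ *atg2*Δ it was 1.10 and called. *ATG7*, the E1 enzyme that serves both systems, had 28.5 and 32.4 CPM against 24.1 in growing *rny1*Δ *atg2*Δ cells, and 32.0 and 38.9 against 23.3 in *rny1*Δ cells. All rapamycin libraries lay above growing ones, but the log2 changes of 0.33 ± 0.15 and 0.60 ± 0.16 did not pass the call (adjusted p = 0.053 and 0.0021).

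In the Atg12 system, *ATG16* was the gene that rose. It had 7.74 and 6.22 CPM against 1.94 in growing *rny1*Δ *atg2*Δ cells, and 6.12 and 6.12 against 2.18 in *rny1*Δ cells. The log2 changes were 1.86 ± 0.29 (adjusted p = 1.3e-05) and 1.48 ± 0.32 (adjusted p = 3.6e-04), on raw counts of 132 and 73 against 34 in *rny1*Δ *atg2*Δ, and of 62 and 54 against 31 in *rny1*Δ. The DESeq2 Wald test gave an adjusted p of 0.018 for *ATG16* in *rny1*Δ, which ends that call. *ATG10*, the E2 enzyme for Atg12, had 5.22 and 5.03 CPM against 3.08 in growing *rny1*Δ *atg2*Δ cells, and 4.15 and 6.01 against 2.75 in *rny1*Δ cells. Its log2 changes of 0.74 ± 0.30 and 0.87 ± 0.34 were not called (adjusted p = 0.033 and 0.027), but with a correction for coding length that in *rny1*Δ was 1.09 and called (adjusted p = 0.0093).

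*ATG12* itself had 11.4 and 11.4 CPM against 9.86 in growing *rny1*Δ *atg2*Δ cells, and 10.9 and 14.3 against 9.94 in *rny1*Δ cells. *ATG5*, whose product is the target of Atg12, had 53.5 and 53.1 CPM against 55.5 in growing *rny1*Δ *atg2*Δ cells. In *rny1*Δ cells it had 55.1 and 62.3 against 53.5. For both genes the log2 changes lay between -0.06 and 0.33 with standard errors up to 0.21, and none was called.

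**Figure D1:**
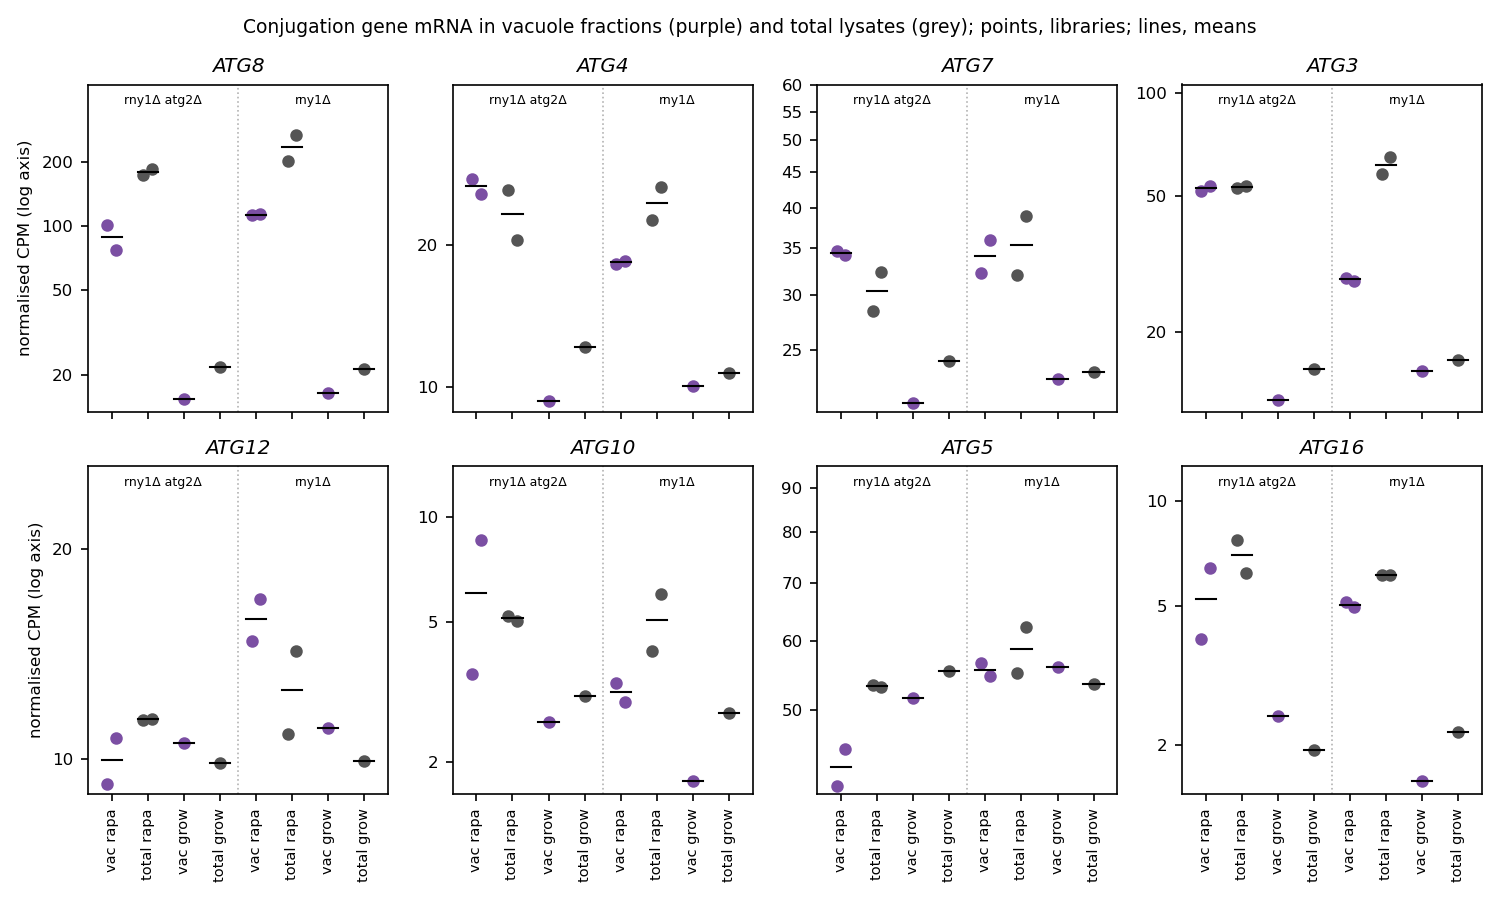
Normalised CPM (log axis) of each conjugation gene in the 12 libraries of the vacuole experiment, vacuole fractions in purple and total lysates in grey, with a point per library and a line at each group mean. *ATG8* total lysates after rapamycin sit between 173 and 267 CPM and growing ones at 21.3 and 21.9, while *ATG5* total lysates stay between 53.1 and 62.3 CPM.

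Total lysates of *rny1*Δ *atg2*Δ and *rny1*Δ cells after rapamycin were also compared directly. None of the 8 genes was called between the strains, where 0.539% of all genes were. The largest difference was that of *ATG8*, with 173 and 185 CPM in *rny1*Δ *atg2*Δ against 203 and 267 in *rny1*Δ, a log2 difference of -0.39 ± 0.12 (adjusted p = 0.045, edgeR). The libraries of the strains did not overlap for *ATG8*, and neither did they for *ATG3*, *ATG5* and *ATG16*. How many of all genes separated in this way was not counted. The 7 genes other than *ATG8* had log2 differences of -0.22 to 0.21.

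Levels can be compared between genes only per length, here as transcripts per 1000000 (TPM) computed from the counts. In growing *rny1*Δ *atg2*Δ and *rny1*Δ lysates *ATG5* (66.1 and 64.9 TPM) and *ATG8* (65.4 and 64.5 TPM) were the most abundant of the 8 mRNAs and lay close together. *ATG12* (18.5 and 19.0 TPM), *ATG3* (17.6 and 19.1 TPM) and *ATG7* (13.4 and 13.2 TPM) came next, and *ATG4*, *ATG10* and *ATG16* stayed between 4.51 and 8.66 TPM. After rapamycin *ATG8* alone held 71.3 and 73.1% of the summed TPM of the 8 genes in *rny1*Δ *atg2*Δ lysates, against 32.6% in growing cells. The same share was 74.4 and 76.7% in *rny1*Δ lysates, against 32.4% in growing cells. *ATG5* and *ATG3* followed *ATG8*. In *rny1*Δ *atg2*Δ *ATG5* (66.5 and 66.6 TPM) lay slightly above *ATG3* (62.0 and 63.7 TPM), and in *rny1*Δ the ranges of *ATG5* (67.3 and 73.3 TPM) and *ATG3* (67.0 and 72.7 TPM) overlapped. *ATG10* was the least abundant of the 8 in all 4 of these lysates, with 8.90 to 12.4 TPM.

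WT cells gave the time order of the response, and the genes that rose were already called at 1 h. At 1, 2 and 3 h, 5, 4 and 5 of the 8 genes were called higher, and 14.5%, 11.2% and 11.7% of all genes were. The median log2 change of the 8 genes at 3 h was 1.34, against -0.01 over all genes. The 3 comparisons share the same growing libraries, and with 1 library per time their spread comes from the growing pair alone, with 1 residual degree of freedom.

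*ATG8* had 2.00 and 1.44 CPM in the growing WT RNA-Seq libraries (18 and 16 raw counts), and 28.6, 19.3 and 21.4 CPM at 1, 2 and 3 h. Every rapamycin time stood above both growing libraries, and the log2 changes were 4.07 ± 0.23, 3.50 ± 0.24 and 3.65 ± 0.24 (adjusted p = 6.5e-11, 9.8e-10 and 6.4e-10, edgeR). *ATG7* had 10.8 and 12.6 CPM in growing cells and 37.7, 31.3 and 31.9 CPM at 1, 2 and 3 h, with log2 changes of 1.68, 1.41 and 1.44 (each SE at most 0.16). *ATG3* had 4.67 and 5.42 CPM in growing cells and 14.8, 13.5 and 14.3 CPM at the 3 times, with log2 changes of 1.55, 1.40 and 1.49 (each SE 0.22). Both genes passed the call at each time, with adjusted p-values of 2.3e-05 or less.

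*ATG4* had 9.34 and 10.2 CPM in growing cells and 25.4, 19.1 and 23.3 CPM at 1, 2 and 3 h. It was called higher at 1 h (1.37 ± 0.17) and at 3 h (1.25 ± 0.17), and at 2 h its log2 change of 0.96 ± 0.17 missed the size threshold (adjusted p = 1.1e-04). *ATG16* rested on few reads, 6 and 16 counts in growing cells and 39, 49 and 47 counts at the 3 times, and was called higher at each (log2 changes of 1.58, 1.47 and 1.65, adjusted p = 0.0076, 0.0097 and 0.0046). Without the second growing RNA-Seq library these changes were 2.28, 2.18 and 2.36, values with no test because no residual degree of freedom was left. The DESeq2 Wald test gave adjusted p-values of 0.17, 0.22 and 0.15 for *ATG16*, which ends its calls.

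*ATG10* mRNA was not called higher in WT cells, and its direction there depended on the scale. It had 4.89 and 4.06 CPM in growing cells and 2.7, 1.81 and 2.35 CPM at 1, 2 and 3 h, all below both growing libraries. It was called lower at 2 h (log2 change of -1.30 ± 0.37, adjusted p = 0.0057), where 14.5% of all genes were called lower, and not at 1 h (-0.72 ± 0.37) or 3 h (-0.92 ± 0.36). The DESeq2 Wald test gave an adjusted p of 0.19 at 2 h, which ends the call. Per length, *ATG10* had 6.63 and 6.14 TPM in growing cells and 8.0, 5.64 and 7.54 TPM at 1, 2 and 3 h, so that on the TPM scale it lay above both growing libraries at 1 and 3 h. *ATG12* (5.34 and 6.50 CPM growing, then 5.90, 6.04 and 6.84) and *ATG5* (18.3 and 20.9 CPM growing, then 16.2, 18.4 and 16.9) had log2 changes of -0.29 to 0.20 and were not called.

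When RNA-Seq and footprint libraries of WT cells were fitted together, the spread of the footprint libraries was shared by all genes and fewer RNA-Seq calls were left. In that fit *ATG7* at 1 h was the only conjugation gene called, and none passed at 2 or 3 h. The log2 changes themselves moved little, for example to 4.22, 3.59 and 3.74 for *ATG8*, with adjusted p-values of 0.032, 0.061 and 0.053.

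**Figure D2:**
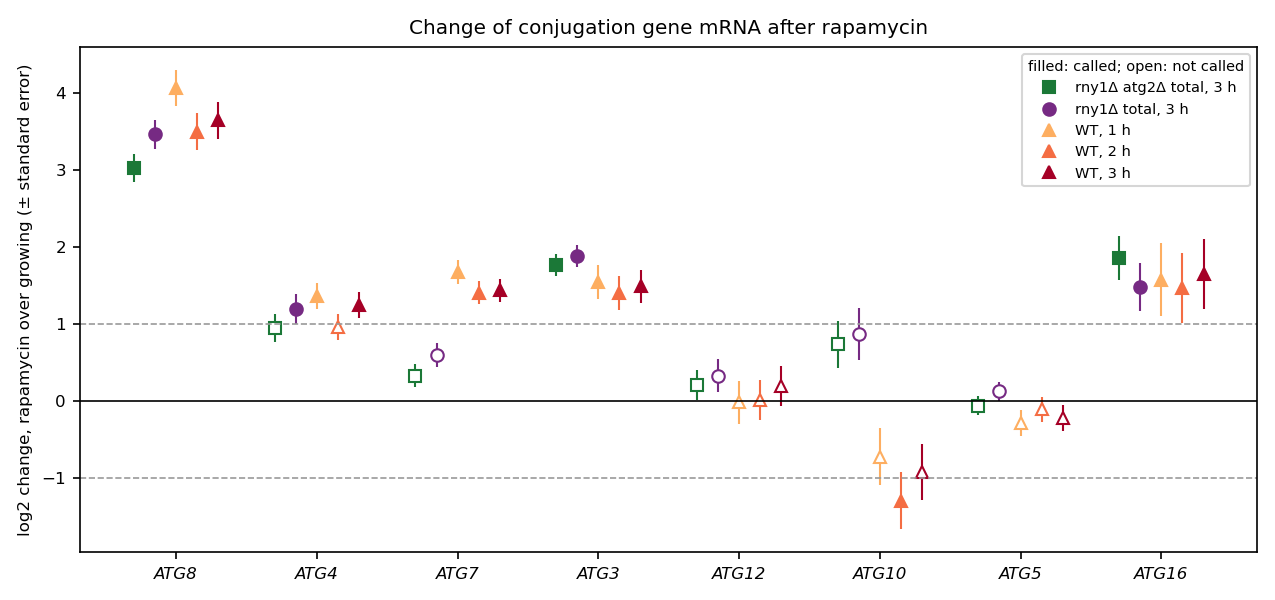
Log2 change of each mRNA with rapamycin over growing cells, with standard errors, in total lysates of the mutant strains at 3 h and in WT RNA-Seq at 1, 2 and 3 h. Filled symbols passed the call and open ones did not, and dashed lines mark the size threshold of 1. *ATG8* lies between 3.03 and 4.07 in all 5 comparisons, and *ATG10* lies above 0 in both mutant strains and, on this scale of normalised counts, below 0 in WT cells, while its TPM at 1 and 3 h were above those of growing WT cells. The TPM of *ATG12* and *ATG5* were above those of growing WT cells at 1, 2 and 3 h.

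The response at 3 h was tested for a difference between total lysates labelled *rny1*Δ and WT RNA-Seq in a joint fit, a comparison added after the separate values had been seen. *ATG10* differed, with a log2 change 1.70 ± 0.48 higher in *rny1*Δ than in WT (adjusted p = 0.0074, edgeR), and 11.4% of all genes were called in that direction. *ATG7* had a log2 change 0.92 ± 0.23 lower in *rny1*Δ, just short of the size threshold (adjusted p = 0.0031). The other 6 genes, *ATG8* included (-0.27 ± 0.34), had differences of -0.27 to 0.31 and none was called. All of these differences are on the scale of normalised counts, and none was tested by TPM. By TPM, *ATG8* in *rny1*Δ lysates rose from 64.5 in growing cells to 620.5 and 786.9 after rapamycin. In WT RNA-Seq it rose from 3.97 and 3.19 TPM to 100.3 at 3 h, a larger factor than in *rny1*Δ. An equal response of *ATG8* in both experiments is therefore not shown. The *ATG10* call was lost without the second *rny1*Δ rapamycin total library (1.48, adjusted p = 0.022) and without the first growing WT library (1.74, adjusted p = 0.014), and with the DESeq2 Wald test (1.85, adjusted p = 0.11). *ATG7* was called without that same *rny1*Δ library (-1.004) or without the second growing WT library (-1.04). The strain differs here together with the experiment and with the way reads were aligned and counted, and these cannot be told apart. The median over all genes of this difference was -0.11.

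In vacuole fractions after rapamycin, *ATG8* and *ATG3* mRNAs were underrepresented relative to the total lysates of *rny1*Δ cells. These 2 of the 8 genes were called lower in *rny1*Δ vacuoles, where 7.11% of all genes were, and none was called in *rny1*Δ *atg2*Δ vacuoles, where 3.29% of all genes were called in either direction. Over all genes, 646 were called higher and 409 lower in *rny1*Δ vacuoles, and the split was 562 and 495 with DESeq2 size factors and 312 and 487 with a correction for coding length. Vacuole and total libraries also differed in their mitochondrial share, as given above. Vacuole libraries after rapamycin held 0.843 and 1.23% in *rny1*Δ *atg2*Δ, against 0.291 and 0.349% in *rny1*Δ. The part of this share in the ratios was not tested. The paper hardly detected mRNA in vacuole fractions of cells without Atg2. CPM in vacuole libraries are shares of the mRNA counted there, not amounts delivered.

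*ATG3* had 28.8 and 28.1 CPM in *rny1*Δ vacuoles after rapamycin, against 57.8 and 65.1 in total lysates, and the fractions did not overlap. The log2 vacuole/total ratio was -1.11 ± 0.11 (adjusted p = 9.1e-08, edgeR). In *rny1*Δ *atg2*Δ cells *ATG3* had 51.5 and 53.6 CPM in vacuoles, against 52.6 and 53.5 in total lysates, and the ratio was -0.04 ± 0.12. The difference of the ratios between *rny1*Δ *atg2*Δ and *rny1*Δ was tested directly and was 1.07 ± 0.16 (adjusted p = 2.0e-05), where 10.2% of all genes were called in that direction, with 588 genes higher and 787 lower (710 and 656 with DESeq2 size factors, 480 and 275 with the length correction). *ATG3* was the only conjugation gene called in this difference. Without the shallow *rny1*Δ *atg2*Δ vacuole library the value was 1.07 (adjusted p = 8.4e-05). The call was lost without the second *rny1*Δ rapamycin total library (0.99), without the first *rny1*Δ *atg2*Δ rapamycin vacuole library (1.13, adjusted p = 0.015, with the shallow library left) and with at least 10 counts required in every library (0.89).

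*ATG8* had 113 and 114 CPM in *rny1*Δ vacuoles after rapamycin, against 203 and 267 in total lysates, a log2 ratio of -1.05 ± 0.12 (adjusted p = 7.4e-07). In *rny1*Δ *atg2*Δ cells it had 101 and 77.1 CPM in vacuoles, against 173 and 185 in total lysates, and the ratio of -0.89 ± 0.14 was close to the call (adjusted p = 1.0e-04). *ATG8* was thus below its total lysate in the vacuoles of both strains, and the difference of the ratios between the strains of 0.17 ± 0.18 was not called (adjusted p = 0.44). Without the shallow library the *rny1*Δ *atg2*Δ ratio was -0.82 and the strain difference 0.23, neither of them called. Leaving out the second *rny1*Δ rapamycin total library took the *rny1*Δ ratio to -0.84, which is not called. With the length correction the strain difference of *ATG8*, whose coding region is the shortest of the 8, was 1.00 and called. Requiring at least 10 counts in every library took the *rny1*Δ ratios to -0.99 for *ATG3* and -0.94 for *ATG8*, which ends both calls.

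The other 6 genes had ratios in *rny1*Δ vacuoles between -0.68 and 0.35. *ATG10* had 3.34 and 2.97 CPM in vacuoles, against 4.15 and 6.01 in total lysates (-0.68 ± 0.27, adjusted p = 0.038). A correction for coding length moved it to -1.27, which was called lower. *ATG4* had 18.3 and 18.6 CPM in vacuoles, against 22.6 and 26.6 in total lysates (-0.42 ± 0.15, adjusted p = 0.020). *ATG12* had 14.8 and 17.0 CPM in vacuoles, against 10.9 and 14.3 in total lysates, groups that did not overlap, with a ratio of 0.35 ± 0.17 (adjusted p = 0.076). The length correction turned the *ATG12* ratio to -0.21, not called either. *ATG5*, *ATG7* and *ATG16* had ratios of -0.08, -0.05 and -0.28.

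In *rny1*Δ *atg2*Δ vacuoles the ratios of *ATG4* (0.23 ± 0.16) and *ATG7* (0.19 ± 0.14) were above 0 and those of *ATG5* (-0.37 ± 0.12), *ATG12* (-0.30 ± 0.20), *ATG10* (-0.46 ± 0.28) and *ATG16* (-0.77 ± 0.24) below, with no call. The shallow vacuole library held only 3 to 36 counts on each of the 8 genes, against 66 to 1879 in the other library of its group. For *ATG10* (4 counts) and *ATG16* (3 counts) its level of 8.57 and 6.43 CPM was close to its floor of 5.6 CPM and gives no order.

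**Figure D3:**
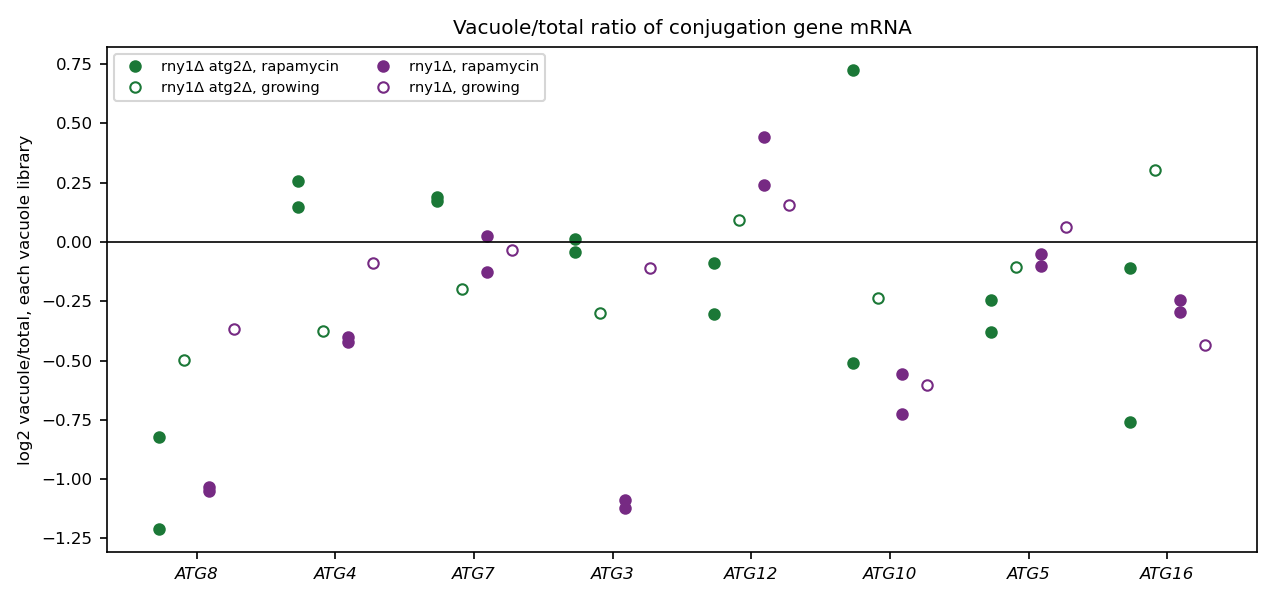
Log2 vacuole/total ratio of each conjugation gene for every vacuole library, set against the mean of the total libraries of the same strain and treatment, in *rny1*Δ *atg2*Δ (green) and *rny1*Δ cells (violet), filled after rapamycin and open in growing cells. *ATG3* sits at -1.09 and -1.12 in *rny1*Δ after rapamycin against -0.11 in growing cells, and at -0.04 and 0.01 in *rny1*Δ *atg2*Δ after rapamycin.

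Growing cells gave the background of this measurement, with 1 library per strain and fraction and hence no test of their own. Their log2 vacuole/total ratios ran between -0.50 (*ATG8*) and 0.30 (*ATG16*) in *rny1*Δ *atg2*Δ and between -0.60 (*ATG10*) and 0.16 (*ATG12*) in *rny1*Δ. *ATG8* was below its total lysate already in growing cells, at 15.5 CPM in vacuoles against 21.9 in total lysates of *rny1*Δ *atg2*Δ, and at 16.5 against 21.3 in *rny1*Δ.

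Vacuolar enrichment sets the ratio after rapamycin against that in growing cells. None of the 8 genes was called enriched or depleted in either strain, while 3.72% of all genes were in *rny1*Δ *atg2*Δ and 20.1% in *rny1*Δ. *ATG3* in *rny1*Δ lay at the edge of the size threshold, with -0.9995 ± 0.20 (adjusted p = 6.1e-04, edgeR), against 0.27 ± 0.20 in *rny1*Δ *atg2*Δ. It was called depleted under several other settings, with DESeq2 size factors (-1.09), the DESeq2 Wald test (-1.09), all listed genes (-1.02), only the *rny1*Δ libraries (-1.01) and the length correction (-1.30). It was also called without the first *rny1*Δ rapamycin total library, without either of the rapamycin vacuole libraries of *rny1*Δ, or without the first *rny1*Δ *atg2*Δ rapamycin total library, at -1.16 to -1.02. The difference between the strains was 1.26 ± 0.29 (adjusted p = 0.0034), called higher in *rny1*Δ *atg2*Δ as were 8.03% of all genes. Without the shallow library it was 1.26 (adjusted p = 0.0050). This last call was lost with the DESeq2 Wald test (1.35, adjusted p = 0.033) and without the first *rny1*Δ *atg2*Δ rapamycin vacuole library (1.32, adjusted p = 0.034).

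The enrichment of *ATG8* was -0.39 ± 0.24 in *rny1*Δ *atg2*Δ and -0.69 ± 0.24 in *rny1*Δ (adjusted p = 0.32 and 0.024). With the length correction *ATG8* was called depleted in *rny1*Δ, at -1.44. The 6 remaining genes ran from -1.09 (*ATG16*, SE 0.45) to 0.61 (*ATG4*, SE 0.27) in *rny1*Δ *atg2*Δ and from -0.33 (*ATG4*) to 0.19 (*ATG12* and *ATG16*) in *rny1*Δ. *ATG4* differed between the strains by 0.94 ± 0.39 in enrichment and by 0.64 ± 0.22 in the ratio after rapamycin, neither of which passed (adjusted p = 0.070 and 0.017).

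Ribosome footprints on these mRNAs were measured in WT cells, in the same lysates as the RNA-Seq. No conjugation gene was called at 1, 2 or 3 h of rapamycin, where 6.08%, 0% and 0% of all genes were called. At an unadjusted p under 0.05 edgeR gave 1441, 937 and 959 of 5625 genes. In a test on simulated data of the same depth, all genes shared a common spread and no gene of the lowest levels was changed. Of 200 genes changed 4-fold (a log2 change of 2), 56, 40 and 46 were recovered at 1, 2 and 3 h. Changes of this size were thus mostly not detectable, and genes with a wider spread of their own were not simulated.

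The *ATG8* footprints of the growing replicates stood far apart, at 6.08 and 53.1 CPM on 23 and 129 raw counts. On the log2 scale they differed by 3.09, and 1.69% of all genes differed as much between these 2 libraries. At 1, 2 and 3 h *ATG8* had 116, 57.6 and 84.0 CPM, all above both growing libraries. The log2 changes were 2.00 ± 0.89, 0.99 ± 0.91 and 1.53 ± 0.90 (adjusted p = 0.21, 0.63 and 0.40, edgeR). Without the first growing footprint library they were 1.10, 0.12 and 0.62, and without the second 4.23, 3.24 and 3.76, values with no test. The RNA-Seq of the same growing lysates did not show such a gap, with 2.00 and 1.44 CPM.

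*ATG3* footprints were 14.0 and 23.5 CPM in growing cells and 38.4, 28.5 and 35.3 CPM at 1, 2 and 3 h. *ATG4* footprints were 11.9 and 17.7 CPM in growing cells and 30.8, 25.7 and 23.1 CPM at the 3 times. *ATG7* footprints were 10.3 and 14.0 CPM in growing cells and 32.6, 27.4 and 24.5 CPM. All rapamycin values of these genes lay above both growing values, with log2 changes of 1.05, 0.62 and 0.93 for *ATG3*, 1.07, 0.81 and 0.66 for *ATG4* and 1.44, 1.19 and 1.02 for *ATG7*. The 3 times share the same growing libraries. How many of all genes separated in this way, as *ATG8* did too, was not counted. The smallest adjusted p was 0.053, for *ATG7* at 1 h, and *ATG7* was called there (1.48, adjusted p = 0.0056) when at least 10 counts were required in every library.

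*ATG16* had 2 and 1 footprint counts in growing cells and 54, 10 and 73 counts at 1, 2 and 3 h. Against both growing libraries pooled, the depth-corrected ratios were 5.89 (95% exact interval 1.91 to 29.5), 4.40 (1.13 to 24.9) and 6.63 (2.18 to 32.9), intervals that cover counting error only. *ATG10* had 1 and 6 counts in growing cells and 13, 4 and 9 counts at the 3 times, with ratios of 0.608, 0.755 and 0.350 whose intervals all include 1. *ATG12* footprints were 2.11 and 3.29 CPM in growing cells and 3.53, 2.34 and 3.51 CPM at the 3 times. *ATG5* footprints were 4.76 and 7.41 CPM in growing cells and 5.43, 6.80 and 7.46 CPM, so that for both genes growing and rapamycin values overlapped.

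**Figure D4:**
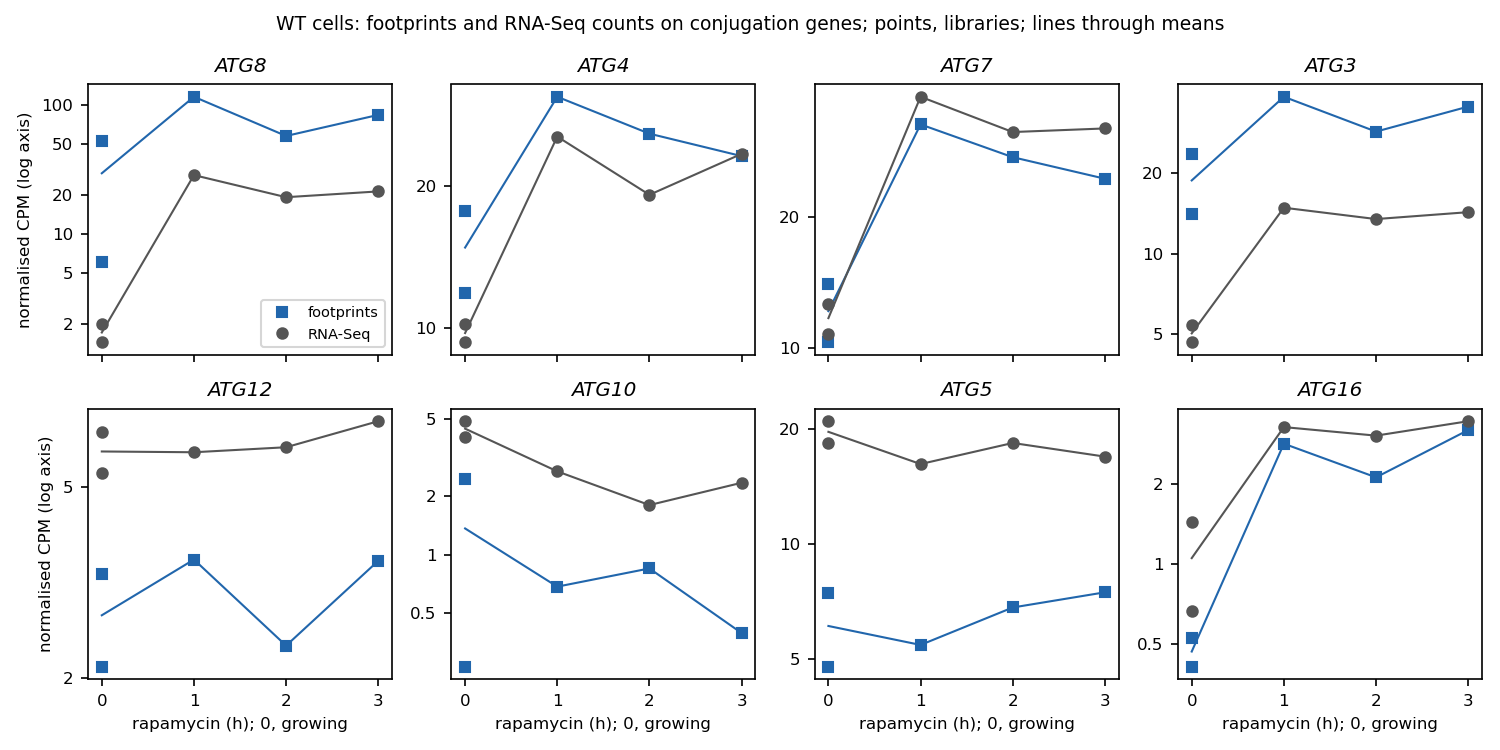
Normalised CPM (log axis) of footprints (blue squares) and RNA-Seq (grey circles) on each conjugation gene of WT cells by hours of rapamycin, where 0 is the growing state with 2 libraries per assay and lines run through means. *ATG8* footprints are 6.08 and 53.1 CPM in growing cells and 57.6 to 116 CPM after rapamycin.

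The footprint/RNA ratio, a measure of ribosome association, was computed for each lysate. *ATG8* had log2 ratios of 1.76 and 5.24 in growing cells and 2.07, 1.72 and 2.09 at 1, 2 and 3 h, so that the second growing library alone stood apart. *ATG3* ratios ran from 1.22 to 2.29 and *ATG4* ratios from 0.12 to 1.00, above the median over all genes, which lay between -0.04 and 0.10. *ATG5* ratios ran from -1.66 to -1.03 and *ATG12* ratios from -1.16 to -0.65, below it in all 5 lysates. *ATG7* ratios stayed between -0.25 and 0.36, *ATG16* ratios between -1.29 and 0.02 and those of *ATG10*, on few counts, between -3.32 and -0.47.

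No gene of the genome was called for a change of ribosome association by edgeR at any time (0% of 5936 genes, with 250, 252 and 570 genes at an unadjusted p under 0.05, and 4, 1 and 2 genes by the DESeq2 Wald test). *ATG8* had the largest values of the 8 genes, -2.19 ± 1.48, -2.54 ± 1.50 and -2.17 ± 1.49 (adjusted p = 0.92, 0.90 and 0.65). Without the first growing footprint library, which left the spread to the RNA-Seq pair alone, *ATG8* was called lower at -3.10, -3.46 and -3.08, and *ATG3* was called lower at 2 h (-1.20). Without the second growing footprint library instead, *ATG8* was at -0.00031, -0.35 and 0.02 and was not called, so its values rest on which growing library is kept. *ATG3* (-0.65, -0.85 and -0.64), *ATG4* (-0.46, -0.22 and -0.68) and *ATG7* (-0.41, -0.30 and -0.51) had values below 0 at each time, with standard errors of 0.36 to 0.46. The median over all genes was -0.14, -0.12 and -0.05 at the 3 times.

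In WT cells the order of the mRNAs by TPM was not that of the mutant lysates. The tables were counted by different programs, and the TPM used different coding lengths (for *ATG8*, 108 codons in WT against 118 in the mutants). Their levels are therefore set side by side only. In growing WT cells *ATG5* led with 13.8 and 17.5 TPM. *ATG12* (6.46 and 8.76 TPM) and *ATG10* (6.63 and 6.14 TPM) came next, and *ATG8* had 3.97 and 3.19 TPM. With the lengths used for WT, the *ATG8* level overlapped those of *ATG3* (3.32 and 4.29) and *ATG7* (3.72 and 4.86). It lay below that of *ATG4* (4.12 and 5.02). Whether levels this close keep their order with R64 lengths was not tested. *ATG16* was lowest, with 1.01 and 2.44 TPM. At 3 h *ATG8* had 100.3 TPM, *ATG5*, *ATG7*, *ATG4* and *ATG3* had 24.0 to 30.04 TPM, *ATG12* had 19.6, *ATG16* had 12.4 and *ATG10* had 7.54 TPM. *ATG8* made up 9.22 and 6.11% of the summed TPM of the 8 genes in growing WT RNA-Seq and 47.5, 40.2 and 41.1% at 1, 2 and 3 h. Its share of the footprint TPM was 31.6 and 71.1% in growing cells and 77.8, 68.1 and 73.8% at the 3 times.

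The other steps of autophagy were followed by lists of genes for comparison. In total lysates after rapamycin, 24 of 33 other autophagy genes were called higher and 1 lower in *rny1*Δ *atg2*Δ, and 23 higher and 1 lower in *rny1*Δ, with medians of 1.67 and 1.54 on the log2 scale. The shares over all genes were 23.4% higher and 23.9% lower in *rny1*Δ *atg2*Δ, and 21.3% and 22.9% in *rny1*Δ. The 24 include *ATG2*, which is deleted in *rny1*Δ *atg2*Δ and had 52 and 79 counts after rapamycin, against 15 in growing cells. All 7 Atg8-binding receptors were called higher in both strains, and *ATG39*, a receptor for the nuclear envelope and ER, had the largest change (5.66 ± 0.18 and 4.64 ± 0.18). Of the Atg1 kinase complex, which starts autophagosome formation, 4 of 6 genes rose in *rny1*Δ *atg2*Δ and 3 of 6 in *rny1*Δ, *ATG29* the most in both (2.13 and 2.21). *ATG27*, which takes part in Atg9 traffic, was the gene called lower in both (-1.33 and -1.41). In WT RNA-Seq at 3 h, 19 of the 33 genes were called higher and none lower, among them all 6 genes of the Atg1 kinase complex and none of the 5 genes of PI3-kinase complex I, which makes the phospholipid PI3P at the forming membrane. Over all genes, 11.7% were called higher and 15.9% lower there.

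Genes of other ubiquitin-like systems moved in both directions, as all genes did. Of 13 such genes, 2 were called higher and 3 lower in *rny1*Δ *atg2*Δ total lysates, and 1 higher and 4 lower in *rny1*Δ, with medians of -0.54 and -0.31. Over all genes, 23.4% were called higher and 23.9% lower in *rny1*Δ *atg2*Δ, and 21.3% and 22.9% in *rny1*Δ. *UBI4*, which encodes polyubiquitin, rose (3.69 ± 0.16 and 3.25 ± 0.15), while *URM1*, a ubiquitin-like modifier that also serves tRNA thiolation, fell (-1.84 ± 0.18 and -1.96 ± 0.21). In *rny1*Δ vacuoles after rapamycin 5 of these 13 genes were called higher and none lower, *RUB1* the most (1.62 ± 0.13), and of the 33 autophagy genes 4 were called lower and none higher. Over all genes 11.2% were called higher and 7.11% lower there, the higher calls numbering 312 in place of 646 with the length correction, and the difference between the lists was not tested. Of the 4 genes called lower, *SNX41* (-1.35 ± 0.13) and *ATG20* (-1.28 ± 0.11), which encode sorting nexins, had the lowest ratios.

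**Figure D5:**
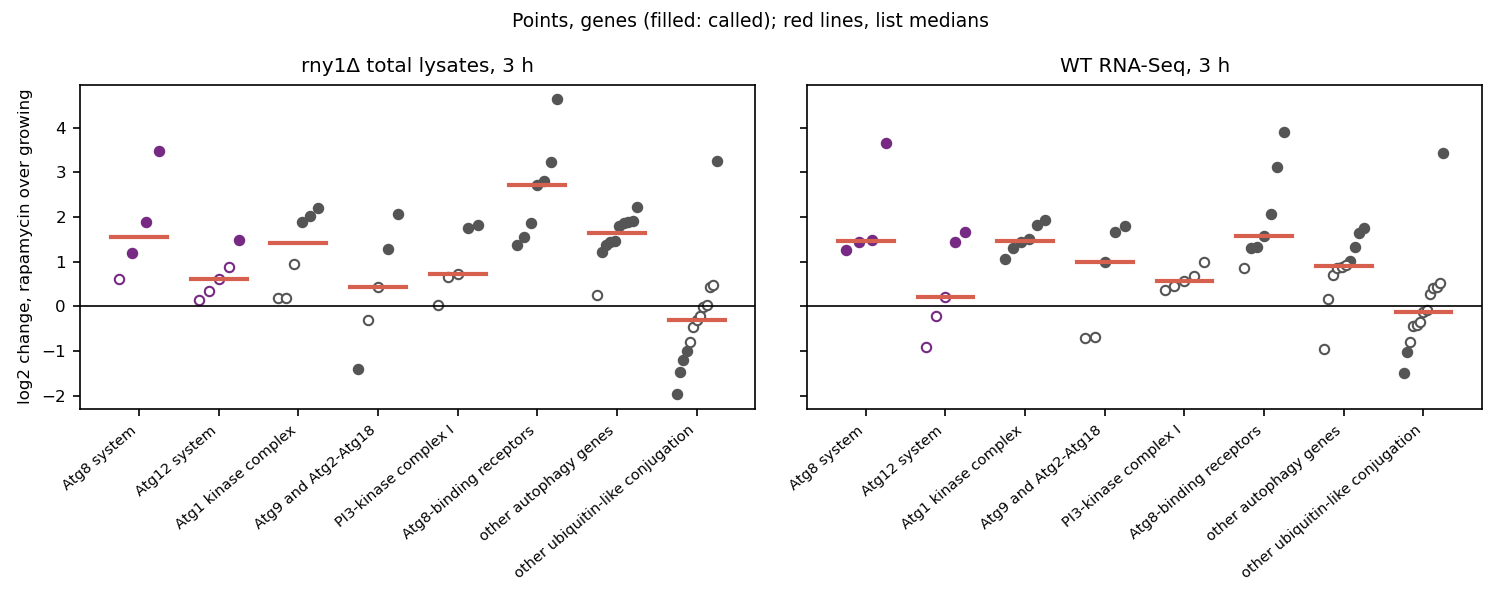
Log2 change with rapamycin at 3 h over growing cells for the genes of each list, in total lysates of *rny1*Δ cells (left) and in WT RNA-Seq (right), with conjugation genes in violet, filled points for called genes and red lines at list medians. *ATG7* belongs to both conjugation systems and is drawn in both. All 7 Atg8-binding receptors are filled on the left, and the other ubiquitin-like genes have a median of -0.31 there.

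The genes whose levels ran most like those of *ATG8* were sought by Pearson's correlation of log2 CPM over libraries, as a description. Over the 12 libraries of the vacuole experiment they were *SPG5* (0.996), *EAF3* (0.995) and *QCR10* (0.995), among 4008 genes. Over the 10 WT libraries, RNA-Seq and footprints together, they were *RAV2* (0.991), *UBC8* (0.989) and *FUN14* (0.989), among 5041 genes. Of the conjugation genes with enough counts, *ATG3* (0.927 and 0.960) and *ATG4* (0.905 and 0.942) came closest, *ATG7* gave 0.884 and 0.749 and *ATG5* 0.0814 and -0.543. All libraries are either growing or rapamycin-treated, and the points share that contrast.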

How the data were processed

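The vacuole experiment (12 RNA-Seq libraries) and the WT time course (10 libraries of RNA-Seq and ribosome profiling) were analysed from the read counts per gene that the authors deposited, without normalization. For the vacuole experiment the authors removed rRNA reads with Bowtie2 2.1.0, aligned with TopHat2 2.0.9 and counted with HTSeq 0.6.1, and 62.6 to 79.5% of reads in these files fell in rows that name no gene, which were left out. WT reads were aligned with STAR 2.7.0a, and footprint duplicates were removed by molecular identifiers. The deposited column of coding lengths in codons was checked against R64. It also gave the lengths for the TPM of WT libraries and the basis of the length correction. Names and coordinates came from the R64 annotation, which matched 6008 of 6696 listed genes. No sequence is shown.

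Protein-coding genes reaching a total of 10 counts over a fit were normalised by TMM and tested with edgeR 4.0.16 in R 4.3.3 (quasi-likelihood test, Benjamini-Hochberg over all genes tested). The 12 vacuole experiment libraries formed a fit (5753 genes, 4 residual degrees of freedom), as did WT RNA-Seq (5927 genes), WT footprints (5625 genes) and all WT libraries (5936 genes, ribosome association as assay by time). Vacuolar enrichment was tested as a fraction by treatment term. The joint fit of both experiments (5976 genes) was added after seeing the data. Alternatives were DESeq2 1.42.0 and its size factors, other filters, a length correction, a replicate block and leaving out each replicate. On simulated data with 200 genes changed by a log2 change of 2, 199 or 200 were recovered in each comparison without footprints. The simulation gave all genes a common spread and changed no gene of the lowest levels, so it does not give the recovery for genes with few counts. TPM used R64 coding lengths in the vacuole experiment and the deposited codon column in WT libraries. For *ATG8* that column holds 108 codons, against 118 with the stop codon in R64. The members, the lists and the rule for named genes (all 8 members, *RNY1* and *ATG2* as label checks, the 3 genes most like *ATG8* in each experiment, and at most the 2 largest and 2 smallest called genes of a list) were chosen with earlier results of these data known. RNA-Seq and footprints of a number come from a shared lysate by the study's methods, while a shared culture of total and vacuole libraries was not stated. Intervals and floors of 3 counts cover counting error only.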

Additional observations from a re-analysis of the deposited data

Results flagged for a closer look

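The vacuole/total ratio of *ATG3* mRNA after rapamycin differed between the strains by 1.07 on the log2 scale (*rny1*Δ *atg2*Δ minus *rny1*Δ, SE 0.16, adjusted p = 2.0e-05 by edgeR), with ratios of each vacuole library to the mean of the total lysates of -0.04 and 0.01 in *rny1*Δ *atg2*Δ against -1.09 and -1.12 in *rny1*Δ. Its vacuolar enrichment differed by 1.26 in the same direction (SE 0.29, adjusted p = 0.0034), from the same rapamycin libraries and 1 growing library per strain and fraction. Both values drew attention because a test of the difference between strains passed the call, and both calls were lost without the first *rny1*Δ *atg2*Δ rapamycin vacuole library (1.13 and 1.32). Both compare shares of the mRNA in each library, not amounts, and the paper hardly detected mRNA in vacuole fractions of cells without Atg2.

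The change of *ATG10* mRNA at 3 h of rapamycin differed by 1.70 between *rny1*Δ total lysates and WT RNA-Seq (SE 0.48, adjusted p = 0.0074 by edgeR), with 42 and 53 counts after rapamycin against 39 in growing cells in *rny1*Δ, and 32 counts after rapamycin against 44 and 45 in growing cells in WT. It drew attention because the test of the difference passed the call, in a comparison where 23% of all genes did. The call was lost without the second *rny1*Δ rapamycin total library (1.48, adjusted p = 0.022), without the first growing WT library (1.74, adjusted p = 0.014) and with the DESeq2 Wald test (1.85, adjusted p = 0.11). The difference also depends on the scale of normalised counts. By TPM, *ATG10* was higher after rapamycin in both, with 8.90 and 12.4 against 5.85 in *rny1*Δ and 7.54 against 6.63 and 6.14 in WT. The difference in TPM was not tested. The 2 experiments differ in genotype, alignment and counting together, and these cannot be told apart.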

How the results depend on the processing

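No called value changed sign under the alternatives run. Of 1941 values under alternatives, 1878 kept direction and side of the threshold, 30 lost a call, 21 gained one and 12 values without a test moved by more than the replicate spread. The sign changed in 88 values that were called in neither setting. Counts of conjugation genes called moved by more than 1.5 times in these cases, besides smaller moves of 1 gene, and the cause was not tested. Requiring 10 counts in every library gave 0 genes in the *rny1*Δ vacuole/total ratio, 0 in its difference between strains, 1 in footprints at 1 h and 0 in *rny1*Δ against WT. DESeq2's Wald test gave 1 in *rny1*Δ enrichment, 0 in its strain difference, 3 in WT RNA-Seq at 2 h and 0 in *rny1*Δ against WT. In *rny1*Δ enrichment DESeq2 size factors gave 1, all listed genes 1, only the libraries compared 1 and the length correction 2, and the length correction also gave 2 in the strain difference of the ratio. With all WT libraries in a fit, WT RNA-Seq gave 1, 0 and 0 genes at 1, 2 and 3 h, and over all genes 159, 16 and 0 were then called higher. Leaving out a replicate gave 1 to 2 genes in the *rny1*Δ vacuole/total ratio, 0 to 1 in *rny1*Δ enrichment and in both strain differences, 0 to 1, 0 to 2 and 0 to 1 in ribosome association at 1, 2 and 3 h, and 0 to 2 in *rny1*Δ against WT. Left-out replicates of WT RNA-Seq and of footprints gave values with no test, since no residual degree of freedom was left.

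Over all genes, calls of the strain difference of the ratio were 588 higher and 787 lower, and 668 and 488 with the DESeq2 Wald test. For the strain difference of enrichment they were 462 and 533, against 576 and 454 with DESeq2 size factors, 406 and 190 with the Wald test and 205 and 114 with the length correction. *rny1*Δ enrichment gave 697 and 459, against 584 and 553 with size factors, 382 and 504 with the Wald test and 303 and 450 with the length correction. Footprint calls at 1 h were 9 and 333, against 132 and 527 with 10 counts in every library, 30 and 436 with the Wald test and 0 with the length correction.

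Whether same-numbered total and vacuole libraries came from 1 culture is not given in the sources used here. Their deviations correlated at 0.19 in *rny1*Δ and 0.051 in *rny1*Δ *atg2*Δ, and those of footprints and RNA-Seq of the shared growing lysates at 0.096. With a replicate block, 3 and 4 genes were called in total lysates of *rny1*Δ *atg2*Δ and *rny1*Δ, 2 in the *rny1*Δ vacuole/total ratio, 1 in each strain difference and 0 in ribosome association, the same counts as without it.

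Depth limits *ATG10* and *ATG16* most, with 1 to 13 and 1 to 73 footprint counts per library.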
